A study of Mus musculus with 2 samples.

Results

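The BCL2 family genes examined here are 9 genes of the intrinsic cell death pathway, Bcl2a1a, Bcl2a1b, Bcl2a1d, Mcl1, Bcl2, Bcl2l1, Bcl2l11, Bax and Bak1. They were chosen by symbol from the 32285 genes of the deposited count matrices, and all 9 were found. The data are single-cell RNA counts from lungs of 12-week-old female BALB/cJ mice bearing 4T1 tumors. 4T1 is a mammary carcinoma line of the mouse that spreads to the lung. Each mouse received 100000 tumor cells, and lungs were taken 14 days later. One library came from mice given intravenous saline and 1 from mice given intravenous PLG nanoparticles (NPs), which carry no drug cargo. The series text gives 5 doses, and the labels give dosing every 3 days from 1 day after inoculation. The labels give 4 pooled mice for each library. No tumor-free or untreated mice were part of the comparison, so both groups share the tumor. With 1 library per condition there were no replicates and no test was made, and all intervals are 95% intervals for counting error only.

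Cell death through mitochondria is set by the balance of 3 groups of BCL2 family proteins. Guardians such as BCL2, BCL-XL (from Bcl2l1), MCL1 and A1 (from the Bcl2a1 genes) hold the effectors BAX and BAK in check. BH3-only proteins such as BIM (from Bcl2l11) bind the guardians and free the effectors, which then open the outer mitochondrial membrane. Neutrophils are short-lived cells, and mouse neutrophils are known to depend on MCL1, a protein with rapid turnover, while A1 is an NF-κB target in blood cells.

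The saline library held 91168129 UMIs (unique molecular identifiers, which count each captured transcript once) and the NP library held 90081747. After selection there were 8662 saline cells with a median of 6474.5 UMIs and 8333 NP cells with a median of 6008. The libraries shared 21 cell barcodes. Clusters were named from marker genes, and a class name below stands for cells with the markers of that type. Neutrophils were 5653 saline and 3158 NP cells, and S100a8 and S100a9, which define them, had a summed level of 290140 CPM in the saline and 304320 CPM in the NP class. CPM are counts per 1000000 UMIs of a class in a library. In barcodes with under 50 UMIs, which hold free RNA, the summed Bcl2a1 level was 98.8 CPM in the saline and 211 CPM in the NP library.

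The 3 Bcl2a1 genes are close copies on chromosome 9, and their sequences are shown because they limit how counts can be split among them. On GRCm38, Bcl2a1d lies at chr9:88723285-88731914 on the minus strand, and Bcl2a1a at chr9:88956900-88962419 and Bcl2a1b at chr9:89199209-89207827 lie on the plus strand. The annotated transcripts were 98.2% identical between Bcl2a1a and Bcl2a1b, 98.8% between Bcl2a1a and Bcl2a1d, and 99.1% between Bcl2a1b and Bcl2a1d. Of all 90-base windows, 47.0% of those of Bcl2a1a, 36.1% of those of Bcl2a1b and 61.6% of those of Bcl2a1d occurred unchanged in another copy. A read that lies in such a window cannot be assigned to 1 copy, so the sum of the 3 genes is used as the main value. The sources do not say how such reads were counted. If they were left out, the sum is too low. On the same strand, Bcl2a1b also overlaps Gm29094, and Bax overlaps Gm45808, both annotated as protein-coding genes. How reads in these overlaps were counted is not stated either. The likeness of the 3 Bcl2a1 copies reaches into the stretch before them. The following are RefSeq sequences of GRCm38.p6, written 5′ to 3′ on the strand of each gene, with capitals for bases that differ from or are missing in at least 1 of the others.
Bcl2a1a, chr9:88956714-88956855, plus strand: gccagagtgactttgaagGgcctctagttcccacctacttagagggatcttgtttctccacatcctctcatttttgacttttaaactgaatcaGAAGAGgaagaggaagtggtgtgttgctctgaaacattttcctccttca
Bcl2a1b, chr9:89199023-89199164, plus strand: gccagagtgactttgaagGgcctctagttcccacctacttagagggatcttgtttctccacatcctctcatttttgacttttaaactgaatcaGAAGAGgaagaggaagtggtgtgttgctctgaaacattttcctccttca
Bcl2a1d, chr9:88731915-88732050, minus strand: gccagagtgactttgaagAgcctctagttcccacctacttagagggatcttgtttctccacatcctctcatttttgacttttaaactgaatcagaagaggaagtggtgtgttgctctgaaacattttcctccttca
The stretches were 142 bases long in Bcl2a1a and Bcl2a1b, with the same letters throughout, and 136 bases in Bcl2a1d, which lacks 6 of them and differs at 1 other base. RefSeq promoters were found for all 9 members, as 12 windows of 250 bases before a start site. On either strand, the GAS element TTCNNNGAA and the interferon-stimulated response element GAAANNGAAA were found in 0 of the members, against 7.02% and 2.98% of all 32851 windows. An NF-κB consensus was found in 1 window of Bcl2l1 and in 3.90% of all windows.

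The guardians differed in the class where each was highest in CPM, which was alveolar macrophages for Bcl2a1, neutrophils for Mcl1 and T cells for Bcl2. Within the monocytes, 1 cluster led by Pou2f2 had more Bcl2a1 than the alveolar macrophages (1243 CPM in saline and 1560 CPM with NPs), which the mean over all monocytes does not show. The summed Bcl2a1 level was 879 CPM (845 to 914) in saline alveolar macrophages and 977 CPM (947 to 1007) in NP alveolar macrophages. Interstitial macrophages, a class of 65 saline and 88 NP cells that also carried dendritic cell markers, followed with 698 CPM in each library. Monocytes had 119 CPM in the saline and 485 CPM in the NP library. NK cells had 92.0 and 128 CPM, B cells 77.2 and 95.2 CPM, and T cells 55.5 and 89.8 CPM. In saline the intervals of monocytes and NK cells and those of NK and B cells overlapped. Neutrophils were far down this order, with 16.2 CPM (15.1 to 17.4) in saline and 39.5 CPM (37.1 to 42.1) with NPs, and endothelial cells had 8.72 and 16.2 CPM. Saline fibroblasts held 0 UMIs of the 3 genes, which allows up to 7.05 CPM. NP fibroblasts held 30 UMIs, or 36.7 CPM (24.8 to 52.4), an interval that overlapped that of NP neutrophils. These UMIs lay in only 2.19% of the 137 NP fibroblasts, so the value rests on very few cells.

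As a share of UMIs, Mcl1 had its highest level in neutrophils in both libraries. It reached 1806 CPM (1794 to 1818) in saline and 1960 CPM (1942 to 1978) with NPs, above all 9 other classes beyond the counting intervals. Per cell, monocytes and alveolar macrophages lay closer to neutrophils, but B, T and endothelial cells lay further below them. These last classes held 5.19, 4.58 and 2.89 Mcl1 UMIs each in saline, and 3.98, 4.11 and 2.42 with NPs. Neutrophils, monocytes and alveolar macrophages held 15.4, 14.9 and 13.6 Mcl1 UMIs each in saline, and 15.2, 13.5 and 14.4 with NPs. Their median depths in saline were 6026, 15345 and 17268 UMIs. Monocytes had 963 and 903 CPM, interstitial macrophages 962 and 822 CPM, and alveolar macrophages 780 and 751 CPM. B cells had 786 and 697 CPM and T cells 656 and 568 CPM. Epithelial cells were the lowest with 202 and 218 CPM. Neutrophil RNA that reached other cells can add to these values. Scaled by S100a8 and S100a9, it would account for 49.99% of the Mcl1 UMIs of saline endothelial cells and 27.2% of those of NP endothelial cells, but for 11.8% and 6.45% in monocytes.

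Bcl2, the guardian for which the family is named, was highest in T cells with 482 CPM (460 to 506) in saline and 415 CPM (393 to 439) with NPs. NK cells had 436 and 271 CPM, with an interval in saline that overlapped that of T cells, and B cells had 115 and 116 CPM. In neutrophils it was almost absent, with 23 UMIs in 5653 saline cells and 21 UMIs in 3158 NP cells. Of those UMIs, 73.9% and 76.2% lay in the 10 cells with the most. Alveolar macrophages held 1 and 0 UMIs. Bcl2l1 was highest in endothelial cells in saline, at 61.5 CPM. With NPs, endothelial cells, alveolar macrophages and epithelial cells had 46.8, 50.4 and 52.6 CPM, with overlapping intervals. Neutrophils had 16.1 CPM in saline and 16.2 CPM with NPs.

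The genes that promote death differed as well. Bcl2l11, which encodes BIM, was highest in NK cells with 161 CPM (132 to 195) in saline and 235 CPM (205 to 269) with NPs, while neutrophils had 49.7 and 57.9 CPM. Bax was lowest in neutrophils, at 38.9 CPM (37.1 to 40.7) in saline and 27.9 CPM (25.81 to 30.02) with NPs. Epithelial cells had 56.7 and 45.9 CPM, and the other 8 classes had 111 to 187 CPM. The saline interval of neutrophils overlapped that of epithelial cells. Bak1 was highest in alveolar macrophages in saline at 96.4 CPM and in monocytes with NPs at 91.5 CPM, where the intervals of these 2 classes overlapped. Neutrophils had 21.9 and 24.1 CPM of Bak1.

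**Figure D1:**
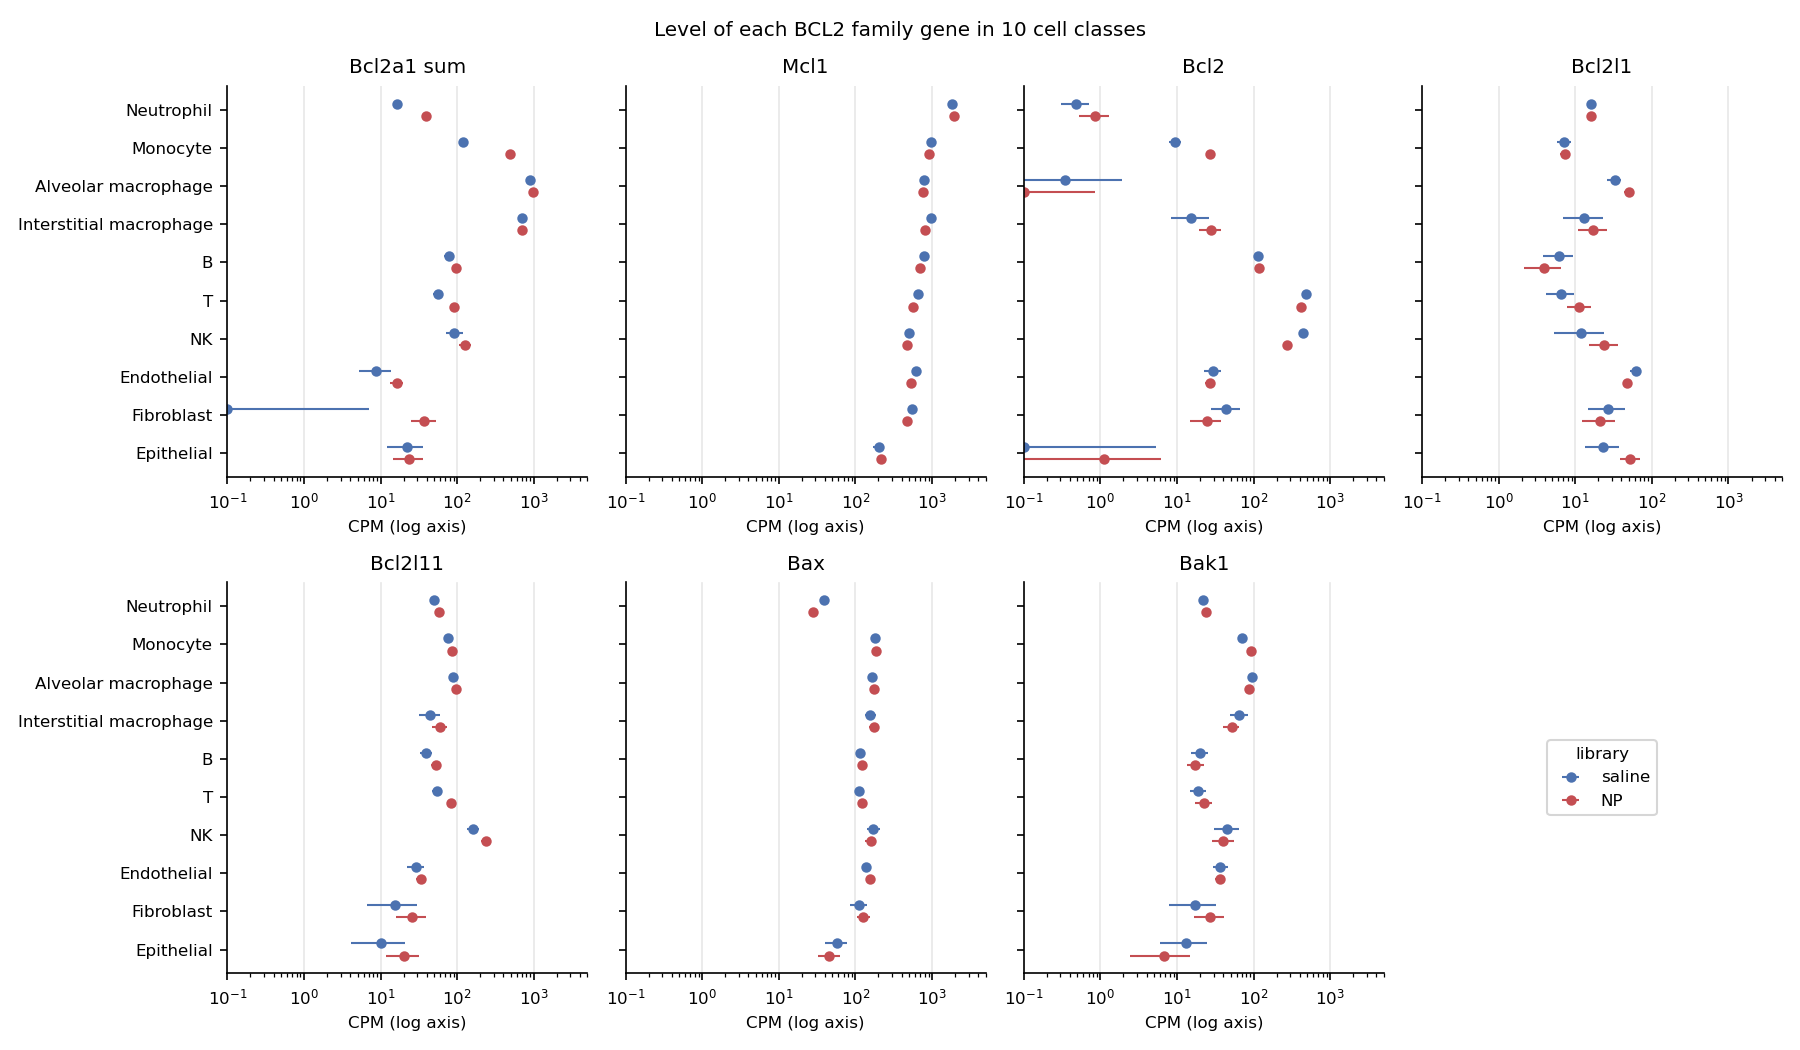
Level of the summed Bcl2a1 genes and of 6 other members in 10 cell classes, in CPM on a log axis, with blue points for the saline and red points for the NP library. Bars are 95% Poisson intervals, and values of 0 lie on the left edge. Mcl1 is highest in neutrophils (1806 and 1960 CPM), the Bcl2a1 sum in alveolar macrophages (879 and 977 CPM) and Bcl2 in T cells (482 and 415 CPM).

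In neutrophils, the Bcl2a1 genes were higher in the NP library, Bax was lower, and Mcl1 was nearly level. The 3 copies held 783 UMIs in saline and 970 UMIs in the smaller NP class, which is 2.44-fold higher as a share of all UMIs (log2 ratio 1.29, 1.15 to 1.42). Each copy pointed the same way. Bcl2a1a had 3.15 CPM in saline and 8.51 CPM with NPs (log2 ratio 1.44), Bcl2a1b had 10.4 and 25.7 CPM (1.31), and Bcl2a1d had 2.69 and 5.29 CPM (0.98). Mcl1 had a log2 ratio of 0.12 (0.10 to 0.13), and it held 15.4 UMIs per saline and 15.2 UMIs per NP neutrophil. Bax had 1878 UMIs in saline and 684 with NPs, a log2 ratio of -0.48 (-0.61 to -0.35), within 1.5-fold. Bcl2l11 had a log2 ratio of 0.22 (0.13 to 0.32). Bak1 (0.14, -0.01 to 0.29) and Bcl2l1 (0.02, -0.16 to 0.19) had intervals that held 0.

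At 1.5-fold, 4 of 9 members were higher with NPs in neutrophils and 0 were lower. Among 11254 genes with at least 20 UMIs in neutrophils, 10.4% were higher and 8.94% lower at this fold, 19.3% in all. The 4 were the 3 copies of Bcl2a1, which are nearly identical in sequence, and Bcl2, whose interval (-0.08 to 1.76) held 0. The median log2 ratio of the 9 members was 0.22, and that of all genes tested was -0.11. At 2-fold, 2 members, Bcl2a1a and Bcl2a1b, were higher, against 8.36% of all genes in either direction.

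**Figure D2:**
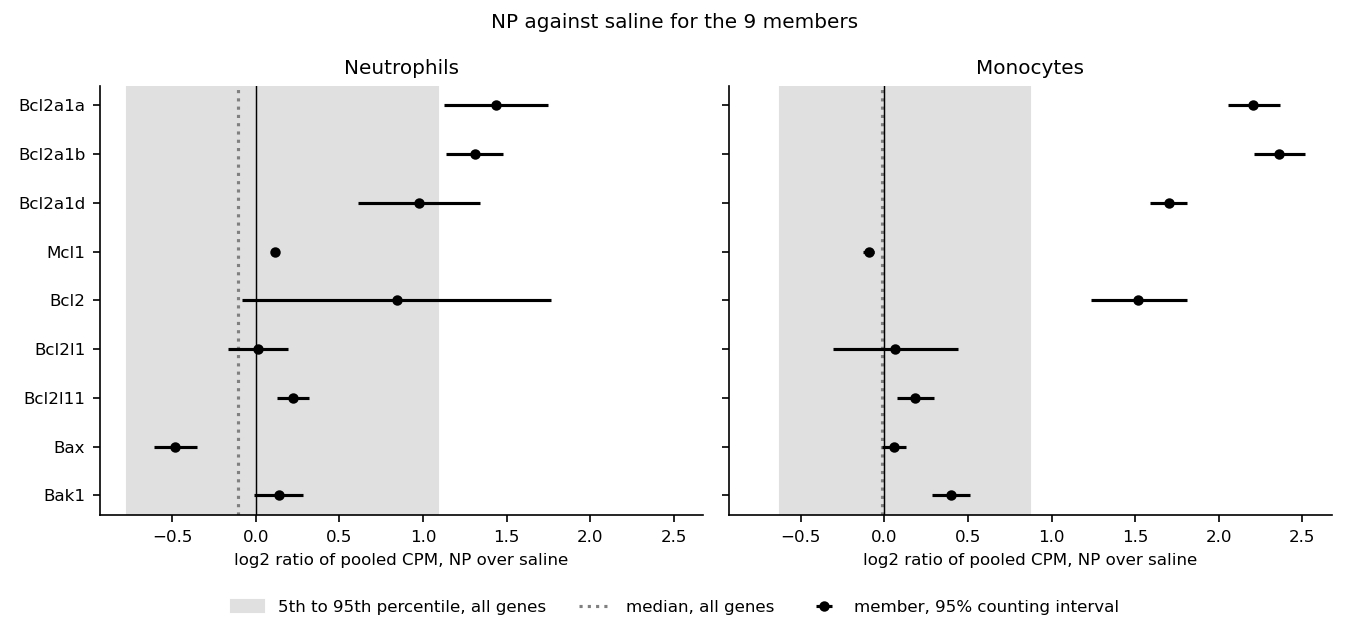
Log2 ratio of pooled CPM, NP over saline, for the 9 members in neutrophils and monocytes, with 95% counting intervals. The grey band spans the 5th to 95th percentile of the genes tested in the class (20 UMIs or more), and the dotted line is their median. Bcl2a1a and Bcl2a1b lie past the band in both classes, and Mcl1 lies near 0 (0.12 and -0.09).

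Few neutrophils showed a Bcl2a1 transcript. After each cell was thinned to 1000 UMIs, the share with one was 2.82% (2.40% to 3.28%) in saline neutrophils and 5.35% (4.60% to 6.20%) in NP neutrophils. Without thinning the shares were 11.04% and 17.95%, at median depths of 6026 and 5249 UMIs. Endothelial cells had 1.41% and 0.737% after thinning, with median depths of 3157 and 3230 UMIs. The 10 neutrophils with the most Bcl2a1 UMIs held 5.87% of them in saline and 13.7% with NPs. Mcl1 was seen in 83.7% and 86.2% of thinned neutrophils. Neither Mcl1 nor Bcl2a1 was seen in 900 of 5644 thinned saline neutrophils (15.9%) and in 415 of 3156 thinned NP neutrophils (13.1%). Without thinning, Mcl1 was seen in 99.8% of neutrophils in each library, so these shares do not count cells that lack both.

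Most marker lists of other cells had a higher summed level in NP than in saline neutrophils. Only those of interstitial macrophages, epithelial cells and fibroblasts were lower. NK cell markers had 2.75 CPM in saline and 10.3 CPM with NPs, dendritic cell markers 3.02 and 4.36 CPM, and plasmacytoid dendritic cell markers 32.0 and 43.4 CPM. Of 18 monocyte markers, 15 were higher, none was at 0, and their summed level was 337 CPM in saline and 482 CPM with NPs. Alveolar macrophage markers summed to 197 and 217 CPM, with 10 of 13 higher, and Marco, which defines these cells, had 0 UMIs in saline and 1 with NPs. Interstitial macrophage markers summed to 237 and 185 CPM, with 5 of 9 higher. Epithelial markers had 299 and 174 CPM and fibroblast markers 228 and 222 CPM. T cell markers had 62.7 and 96.9 CPM with 14 of 14 higher, endothelial markers 37.3 and 86.5 CPM with 16 of 17 higher, and erythroid markers 40.7 and 115 CPM with 6 of 7 higher. Of the genes that lead the monocytes with the most Bcl2a1 (described further on), Pou2f2 had 54 UMIs in saline and 72 with NPs, Ace 78 and 106, and Adgre4 8 and 14. The neutrophil class held 48325994 UMIs in saline and 24556130 with NPs, so as a share each gene rose more than these counts show. The part of such cells in the Bcl2a1 ratio was not tested. Dissociation stress genes, a list that includes Fos, Jun and Egr1, summed to 14588.5 and 18790 CPM. Their part in the result was not tested. Free RNA, estimated at 1.42% of saline and 1.18% of NP neutrophil UMIs, would bring 1.41 and 2.48 CPM of the Bcl2a1 sum. Without barcodes shared by the libraries the log2 ratio was 1.28.

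Within the neutrophils, Mcl1, Bcl2a1, Bcl2l11 and Bax differed between sub-clusters, which were made without the BCL2 family genes. A sub-cluster of 116 saline and 118 NP cells had endothelial markers such as Epas1, Ramp2 and Cldn5 among its leading genes. Another, of 18 and 19 cells, was led by hemoglobin genes. Both are part of the pooled neutrophil values. Most cells lay in 5 other sub-clusters. Immature-like cells were led by Camp, Ltf and Ngp, and Prok2-led cells also by Retnlg. Kit-led cells were led by Apoe, Kit and Saa3, and terminally mature-like cells by Apoe, Dusp2 and Ccl3. Apoe is also on the interstitial macrophage marker list. In this order, from immature-like to terminally mature-like cells, the Mcl1 level in saline was 678, 1586, 2312 and 2867 CPM. With NPs it was 718, 1680, 2556 and 3036 CPM. Interferon-stimulated-like cells were led by Ifi47, Rsad2 and Ifit1. For markers of terminally mature neutrophils, their mean log2 fold over the median sub-cluster was 1.09. It was 1.08 in terminally mature-like cells, so the names do not set these cells apart by maturity. The part of maturity in their levels was not tested. Interferon-stimulated-like cells had 2834 CPM of Mcl1 in saline and 2810 CPM with NPs. Per cell the order was not the same. Immature-like cells, with a median of 24176.5 UMIs in saline, held 16.8 Mcl1 UMIs each, and terminally mature-like cells, with a median of 3729 UMIs, held 11.4. Stress genes had 4122 CPM in saline immature-like and 31848 CPM in saline terminally mature-like cells, and their part in the order was not tested.

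The Bcl2a1 sum had the same order in saline, with 3.99, 6.72, 18.6 and 47.8 CPM from immature-like to terminally mature-like cells. With NPs these values were 10.3, 10.9, 26.6 and 69.9 CPM. Per cell, where depth differs, the 4 sub-clusters held 0.0989, 0.0878, 0.125 and 0.190 Bcl2a1 UMIs in saline, so the order was not the same and the range was narrower. Interferon-stimulated-like cells, 169 in saline and 1152 with NPs, had 32.6 CPM from 31 UMIs in saline and 86.2 CPM from 538 UMIs with NPs, a log2 ratio of 1.40 (0.88 to 1.97). With NPs this was above the level of terminally mature-like cells, though the intervals overlapped (79.0 to 93.8 against 60.6 to 80.2). The log2 ratios in the other 4 were 1.36 (0.75 to 2.00) in immature-like, 0.70 (0.23 to 1.16) in Prok2-led, 0.51 (0.07 to 0.93) in Kit-led and 0.55 (0.29 to 0.80) in terminally mature-like cells. The share of thinned cells with a Bcl2a1 UMI was 5.50% in saline and 6.01% in NP terminally mature-like cells. It was 5.95% and 7.73% in interferon-stimulated-like, 0.802% and 1.14% in immature-like and 0.616% and 1.91% in Prok2-led cells. In each of these the intervals overlapped. Only in Kit-led cells, with 1.70% (1.15% to 2.42%) and 4.38% (2.53% to 7.02%), did they not. With the sub-clusters weighted in both libraries by their saline share of UMIs, the Bcl2a1 ratio of all neutrophils was 0.69 in place of 1.29. The Mcl1 ratio weighted in this way was 0.10. Without the interferon-stimulated-like cells, and with no weighting, the ratio was 0.57 for the Bcl2a1 sum and -0.10 for Mcl1. Within each of the other 4 sub-clusters the Mcl1 ratio lay above 0, from 0.08 to 0.15.

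Among the 5 sub-clusters, Bax was highest in CPM in terminally mature-like cells. Bcl2l11 was highest in CPM in these and in interferon-stimulated-like cells, whose intervals overlapped. Per cell, where depth differs, the orders were not the same. Saline immature-like cells held 0.374 Bcl2l11 UMIs each and terminally mature-like cells 0.412. For Bax these values were 0.492 and 0.390. Bcl2l11 had 15.1, 32.6, 66.4 and 104 CPM along the same 4 sub-clusters in saline, and 20.4, 43.7, 65.4 and 102 CPM with NPs. Interferon-stimulated-like cells had 86.3 CPM of Bcl2l11 in saline (68.7 to 107) and 88.4 CPM with NPs (81.2 to 96.1). Bax had 19.8, 17.0, 45.0 and 98.4 CPM in saline and 16.3, 9.87, 24.8 and 74.7 CPM with NPs. Interferon-stimulated-like cells had 54.8 CPM of Bax in saline and 33.2 CPM with NPs. The Bax ratio lay below 0 in all 5 sub-clusters, from -0.86 (-1.29 to -0.46) in Kit-led to -0.29 (-0.66 to 0.08) in immature-like cells, and the interval of the latter held 0. Bak1 showed no such order, with 15.8 to 28.4 CPM in saline. The share of thinned cells with neither Mcl1 nor Bcl2a1 was 50.5% in saline and 50.4% in NP immature-like cells. In terminally mature-like cells it was 7.51% and 6.14%. Thinning keeps a smaller part of deeper cells, and the saline median depths of these sub-clusters were 24176.5 and 3729 UMIs. Without thinning, saline immature-like cells held 16.8 Mcl1 UMIs each and terminally mature-like cells 11.4. The shares therefore do not count cells that lack both.

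**Figure D3:**
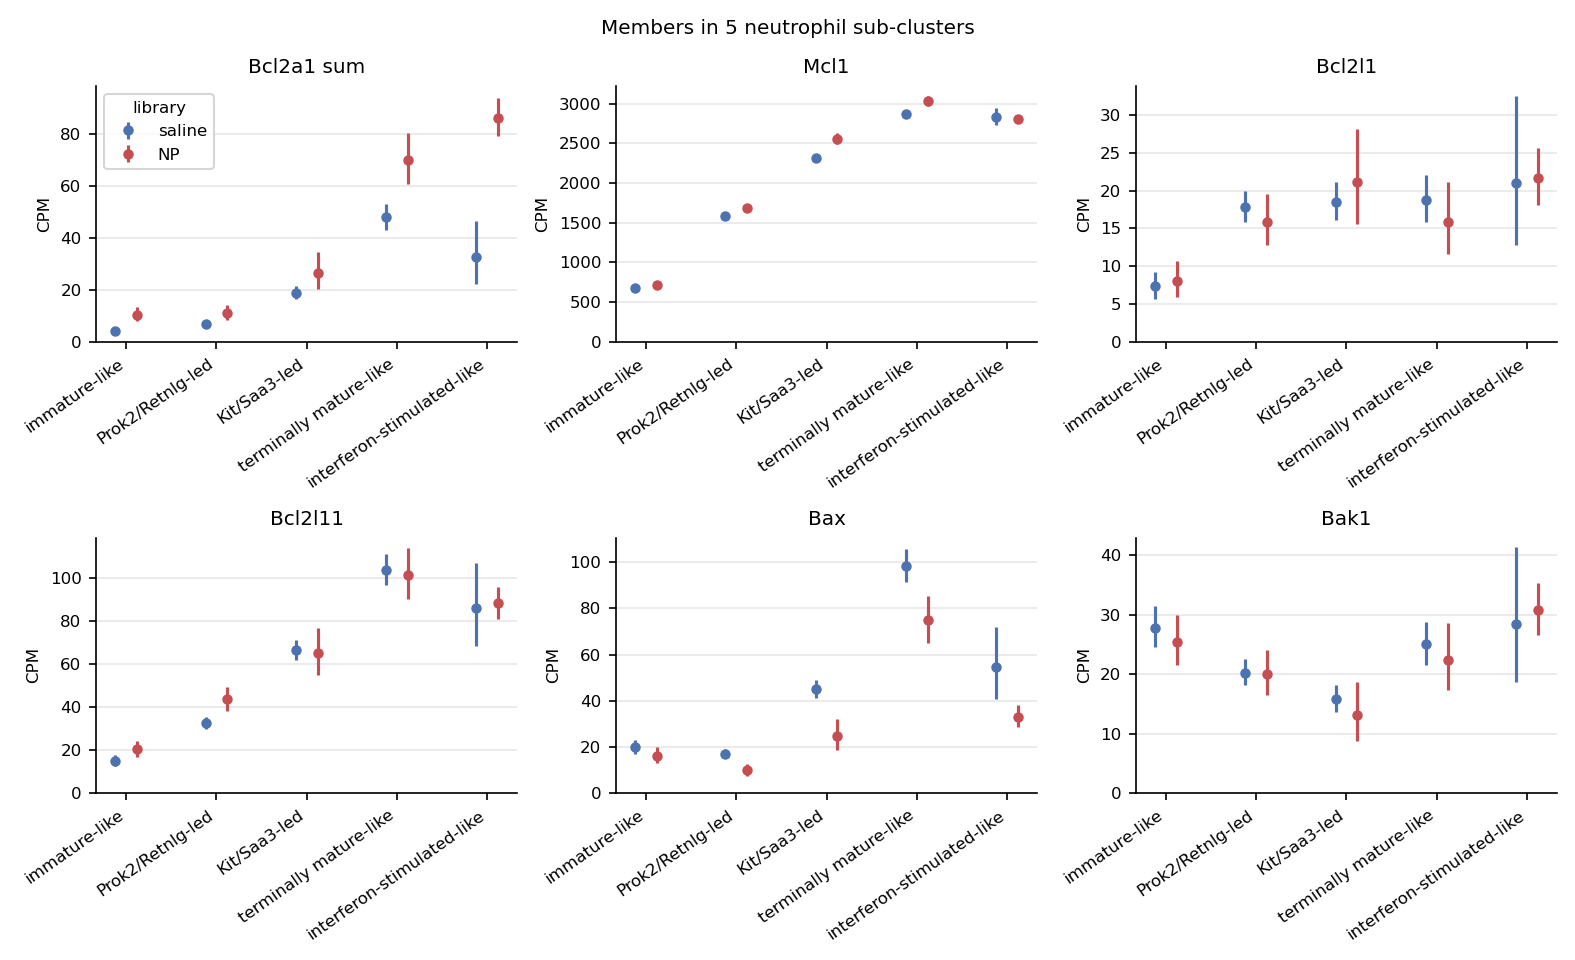
CPM of 6 members in 5 neutrophil sub-clusters, with blue points for the saline and red points for the NP library and bars for 95% Poisson intervals. Mcl1 ranges from 678 CPM in saline immature-like cells to 3036 CPM in NP terminally mature-like cells, and the red points of Bax lie below the blue points in each sub-cluster.

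In monocytes, the Bcl2a1 genes and Bcl2 were higher with NPs, and Mcl1 and Bax were nearly level. The Bcl2a1 sum went from 1574 UMIs in 853 saline cells to 11425 UMIs in 1574 NP cells, a 4.07-fold difference in CPM (log2 ratio 2.02, 1.95 to 2.10). Bcl2a1a, Bcl2a1b and Bcl2a1d had log2 ratios of 2.21, 2.36 and 1.70. Bcl2 had 9.33 CPM in saline and 26.7 CPM with NPs (1.52, 1.24 to 1.81). Bak1 had a ratio of 0.40 (0.29 to 0.51), Bcl2l11 0.18, Bax 0.06, Bcl2l1 0.06 and Mcl1 -0.09 (-0.13 to -0.06). At 1.5-fold, 4 of 9 members were higher and 0 were lower, against 8.12% and 5.78% of 11650 genes (13.9% in either direction).

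The clusters within the monocytes differed strongly in these genes. Cells led by Pou2f2, Adgre4 and Ace, 102 in saline and 401 with NPs, had a Bcl2a1 sum of 1243 CPM in saline and 1560 CPM with NPs (log2 ratio 0.33, 0.23 to 0.43). Bcl2a1d was among their 10 leading genes, although no family gene was used to form clusters. Cells led by Ccr2 and F13a1, 600 in saline and 757 with NPs, had 24.1 and 39.3 CPM (0.70, 0.48 to 0.93). Cells led by Aif1 and Ms4a6d that also had class II genes, 119 in saline and 376 with NPs, had 217 and 860 CPM (1.99, 1.84 to 2.14). Bcl2 had 101 and 121 CPM in the Pou2f2-led cells, with an interval for the ratio that held 0 (-0.10 to 0.63), and 3.68 and 5.28 CPM in the Ccr2-led cells. In the Aif1-led cells Bcl2 had 9 UMIs in saline and 109 with NPs, or 5.09 and 18.1 CPM (1.83, 0.85 to 3.00). With the clusters weighted by their saline share, the ratio of all monocytes was 0.98 for the Bcl2a1 sum in place of 2.02, and 0.55 for Bcl2 in place of 1.52, within 1.5-fold.

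**Figure D4:**
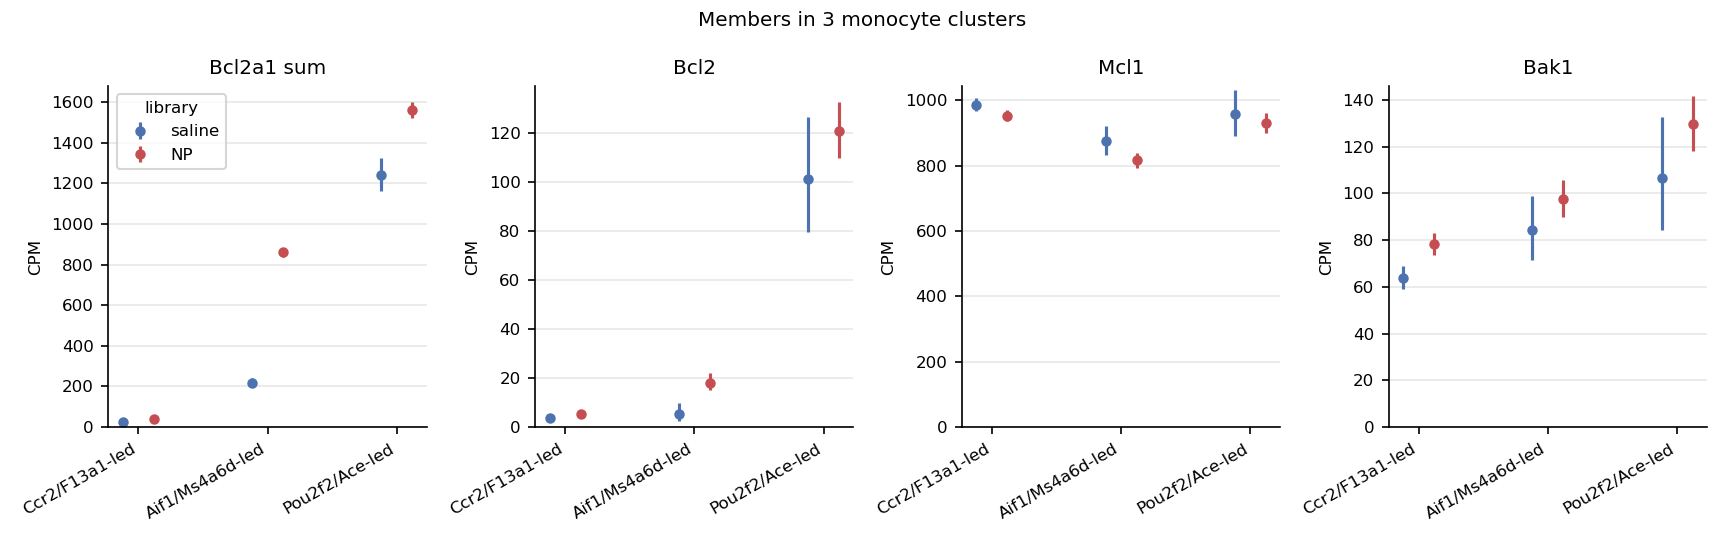
CPM of 4 members in 3 monocyte clusters, with blue points for the saline and red points for the NP library and bars for 95% Poisson intervals. The Bcl2a1 sum is highest in Pou2f2-led cells (1243 and 1560 CPM), and the widest gap between the libraries is in Aif1-led cells (217 and 860 CPM).

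In the other 8 classes, Mcl1 stayed within 1.5-fold, with log2 ratios from -0.23 in interstitial macrophages to 0.11 in epithelial cells. These ratios include neutrophil RNA. Less the estimate of it, endothelial cells had 310 CPM of Mcl1 in saline and 389 CPM with NPs, and B cells 556 and 566 CPM. Both were then higher with NPs, where the full levels were lower. In the other classes the direction stayed the same. The estimate can be too high, as in saline mural cells it came to 120.9% of the Mcl1 UMIs seen. The endothelial cluster with the most cells had a full Mcl1 ratio of -0.18 (-0.31 to -0.05). The Bcl2a1 sum had a ratio of 0.15 (0.08 to 0.22) in alveolar macrophages, 0.00 (-0.15 to 0.15) in interstitial macrophages, 0.69 (0.42 to 0.97) in T cells and 0.48 (0.02 to 0.95) in NK cells. It was 0.89 (0.18 to 1.67) in endothelial cells, from 19 UMIs in saline and 119 with NPs, of which neutrophil RNA would account for 31.9% and 18.2%. The share of endothelial cells with such a UMI went the other way, from 3.21% in saline to 2.40% with NPs. Of these UMIs, 13 in saline and 88 with NPs lay in 1 cluster with a median of 1512 UMIs per cell. Its next best match by markers, after endothelial cells, was neutrophils. Fibroblasts went from 0 to 30 UMIs, which lay in 2.19% of the 137 NP cells. The ratio was 0.30 (0.07 to 0.54) in B cells and 0.11 (-0.92 to 1.17) in epithelial cells. Bcl2 was lower with NPs in NK cells, with 289 UMIs in saline and 250 with NPs (-0.69, -0.94 to -0.44). Bcl2l11 had a ratio of 0.61 (0.33 to 0.89) in T cells and 0.54 (0.20 to 0.89) in NK cells. Bax lay between -0.31 and 0.20 in these 8 classes. All classes come from the same pair of libraries.

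Other genes of the pathway were read from 5 lists in neutrophils, and 54 of their 64 genes had at least 20 UMIs. At 1.5-fold, 7 were higher and 2 were lower, a share of these 54 below the 19.3% of all genes. By direction, the share higher lay above the 10.4% of all genes, and the share lower lay below their 8.94%. Among the 45 with at least 200 UMIs, 5 passed, a share above the 8.11% of all genes. Among the other BCL2 family genes, 1 of 11 was higher and 0 were lower, and the list median was -0.17. That gene was Pmaip1, which encodes the BH3-only protein NOXA, a partner of MCL1, with 30.8 CPM in saline and 47.2 CPM with NPs (0.62, 0.50 to 0.73). Bbc3, which encodes PUMA, had 15.7 and 12.8 CPM (-0.30), and Bid had 37.4 and 38.0 CPM (0.02). Among 13 apoptosome and caspase genes, Casp6, an executioner caspase, was lower with 3473 UMIs in saline and 553 with NPs (-1.67, -1.81 to -1.54). Casp12 was higher with 16 and 21 UMIs. The list median was -0.04.

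Of 10 genes on the inhibitor list, Birc5 was higher (0.81, 0.62 to 1.00). It is among the leading genes of a small sub-cluster that also has Top2a and Mki67. That sub-cluster held 1.44% of saline and 3.27% of NP neutrophil UMIs. Dffb, on the list though it encodes the nuclease that cuts DNA in apoptosis, was lower (-0.71, -1.13 to -0.30). Of 9 death receptor genes, 4 were higher, against 10.4% of all genes, and 3 of the 4 rest on few UMIs. Fas, the receptor for Fas ligand, had 48.6 CPM in saline and 82.1 CPM with NPs (0.76, 0.67 to 0.84). Tnfsf10, which encodes TRAIL, had 8 and 25 UMIs, Mlkl 10 and 14, and Fadd 18 and 16 with an interval that held 0. Of 11 survival receptors and kinases, 0 passed 1.5-fold. Csf3r, the receptor for the neutrophil growth factor G-CSF, had 1142 CPM in each library (0.00, -0.02 to 0.02), and Pim1, a survival kinase, had 726 and 979 CPM (0.43, 0.41 to 0.45). Of 19 stress genes, Egr1 was higher (0.69), and the list median was 0.28.

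In monocytes, 57 genes of these 5 lists had at least 20 UMIs, and 4 were higher and 1 was lower at 1.5-fold, a share below the 13.9% of all genes (8.12% higher and 5.78% lower). The other BCL2 family list had 1 of 13 higher, Bcl2l14 with 5 and 16 UMIs and an interval that held 0. Htra2, a mitochondrial protease, was higher (0.77, 0.64 to 0.90), as was Casp12 (0.92), and Tnfsf10 had 11 and 51 UMIs (1.38). Il1r2 (-0.83) and the stress gene Fosb (-0.59) were lower. Of 12 genes on the inhibitor list, 0 passed 1.5-fold in monocytes.

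The genes with the pattern most like each main guardian were read over 20 points, the 10 classes in each library, which share libraries and depth. For the Bcl2a1 sum they were Havcr2, Ctss and Rassf4 (Pearson r of 0.91, 0.90 and 0.89). For Mcl1 they were Lyst, Rgs19 and Gpi1 (r of 0.91 for each), and for Bcl2 they were Pdcd4, Rnf138 and 4930522L14Rik (0.96, 0.95 and 0.94).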

How the data were processed

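The authors made the libraries with 10x Genomics chemistry and deposited raw counts, whole numbers of UMIs per gene and barcode. The submitters' processing notes name Cell Ranger 6.0 and mm10, and the file header names Cell Ranger 4. The labels give 4 mice per pool and the methods of the study another number. Of the gene identifiers, 99.8% were found in GENCODE vM21 on GRCm38, the assembly called mm10.

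A barcode was kept as a cell at 500 to 5000 detected genes with less than 7.5% of UMIs from mitochondrial genes. After scaling to 10000 UMIs, the 2000 most variable genes without the BCL2 family gave 30 components, and a graph of 20 neighbours was clustered by Leiden at resolution 1, or 0.5 within neutrophils, with no integration. Clusters were named from marker lists, so names may differ from the study's. Doublets were kept. Scrublet marked 1 saline cell (0.0115%), which is too few for it to have worked, and 311 NP cells (3.73%). At 1 shared threshold it marked 229 and 311.

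Levels are pooled CPM with exact Poisson intervals, and shares carry Clopper-Pearson intervals after thinning to 1000 UMIs. Ratios carry exact binomial intervals, and counts under 3 were set to 3. The intervals cover counting error only. Genes needed 20 UMIs over both libraries, and 1.5-fold was used for counts. Genes named were the members, list genes past that fold with values of some others chosen after they were seen, the 3 most alike genes for 3 guardians, and genes that lead clusters. The members and lists were chosen with earlier results of these data known. The weighted ratios, the shared doublet threshold and the neutrophils without interferon-stimulated-like cells are alternatives chosen after seeing the data. Simulated data were used to check the calculations. Clustering used scanpy 1.11.5 with leidenalg 0.10.2 and igraph 0.11.9. Intervals used scipy 1.17.1, tables pandas 2.3.3 and plots matplotlib 3.10.9. All ran under Python 3.11.15 with numpy 2.4.6. The alternatives were other cell limits, doublet removal, resolution, variable genes, weighting, scaling, free RNA subtraction, thresholds and thinning depths.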

Additional observations from a re-analysis of the deposited data

How the results depend on the processing

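No paired analysis was possible because there was 1 library per condition, and no replicate could be left out. The ratio of the Bcl2a1 sum in neutrophils lay between 1.25 and 1.41 under other limits on cells, doublet removal, clustering, scaling and subtraction of free RNA. It was 0.69 with sub-clusters weighted by their saline share, 0.87 when those were made at resolution 1, and 0.57 without the interferon-stimulated-like cells. The Mcl1 ratio in neutrophils was 0.17 with equal weight per cell, 0.24 relative to the median of all genes and 0.19 with TMM scaling. It was 0.10 with sub-clusters weighted by their saline share, and -0.10 without the interferon-stimulated-like cells and with no weighting. The median of the members was 0.34 relative to all genes and 0.0046 without those cells. The number of members past the fold in neutrophils was 2 at 2-fold and 2 without those cells, and 3 or 4 under the others. In monocytes it was 3 or 4, and the median of the members was 0.28 with clusters weighted by their saline share. Of the pathway genes in neutrophils, 5 in place of 9 passed the fold among those with at least 200 UMIs. At that depth 8.11% of all genes passed it. The cause was not tested, except that the last 2 values rest on fewer genes.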

Other observations

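Small classes outside the comparisons also held UMIs of the members. Cells with erythroid and platelet markers, 37 in saline and 43 with NPs, had 1538 and 1471 CPM of Mcl1. They also had 178466 and 162035 CPM of S100a8 and S100a9, and neutrophil RNA would account for 72.2% and 71.0% of their Mcl1 UMIs, which leaves 427 CPM in each library. Basophils, 21 and 39 cells, had 1229 and 902 CPM of Mcl1, of which neutrophil RNA would account for 9.27% and 2.94%, and 1 UMI of the Bcl2a1 genes in each library. Plasmacytoid dendritic cells, 18 and 33 cells, had 423 and 358 CPM of Mcl1 (6.80% and 1.72% by the same estimate), and held 1 Bcl2a1 UMI in saline and 19 with NPs. Mural cells, 32 and 116 cells, held 0 and 2 Bcl2a1 UMIs.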
